A study of Mus musculus with 12 samples.

Results

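Genes of the unfolded protein response and of secretory stress were described across sorted mouse liver cells and liver organoids. The members were 10 genes taken by symbol, and each was measured by an array row naming exactly 1 gene, out of 19937 genes measured in that way. Pdia4 was covered by 2 rows, of which the one with the higher mean was used, and each other member by 1. RNA of 12 libraries, 3 in each of 4 groups and all of the C57Bl6 background, was hybridised to Affymetrix mouse gene arrays. The first group held liver cells sorted by FACS and labelled as uninduced YFP+ hepatocytes, and the second held wild-type organoids cultured for 2 weeks. In both remaining groups Yap, a transcriptional coactivator restrained by Hippo signalling, had been on in the liver for 3 weeks before 2 weeks of organoid culture. Culture was without doxycycline (Dox in the labels) and with Yap off in the third group (Yap-off organoids), and with doxycycline and Yap on in the fourth (Yap-on organoids). The age and sex of the animals, the promoter that drives Yap or marks cells with YFP, and whether replicates came from separate animals are not given in the sources used here. A p-value here thus reflects only how far these libraries spread, and that spread may be technical. Values are log2 intensities, and the median array value of the genes lay between 4.14 and 4.34.

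The endoplasmic reticulum (ER) folds secreted and membrane proteins, and hepatocytes, which secrete most plasma proteins, hold much of it. When unfolded protein accumulates there, the sensors IRE1, ATF6 and PERK start the unfolded protein response. IRE1 splices the mRNA of Xbp1 into that of an active transcription factor, and XBP1 and ATF6 raise ER chaperones and folding enzymes. PERK and other kinases phosphorylate eIF2, which slows translation but raises that of ATF4, and ATF4 turns on genes of amino acid supply and, with CHOP, of prolonged stress. The members fall into an ER chaperone arm (Xbp1, Hspa5, Hsp90b1, Calr, Pdia4 and Pdia6) and an integrated stress arm (Atf4, Ddit3, Trib3 and Asns). The arrays measure total RNA per gene, so neither the splicing of Xbp1 nor the translation of Atf4 was measured, and in such bulk samples fewer cells of a type and less RNA per cell cannot be told apart.

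Libraries of both control groups, labelled hepatocyte and wild-type organoid, were divided within each label. Pearson's r between arrays, taken over genes that are no independent replicates, ran from 0.822 to 0.989 within the first and from 0.800 to 0.970 within the second, against 0.975 to 0.983 in the Yap-off and 0.992 to 0.995 in the Yap-on organoids. The library labelled hepatocyte 2 and those labelled wild-type organoid 1 and 3 carried macrophage and endothelial transcripts, with all 10 macrophage markers and 9 or 10 of 10 endothelial markers above the array median. In the libraries labelled hepatocyte 1 and 3 and wild-type organoid 2, 0 endothelial markers lay above it, and the ductal keratin Krt19 reached 10.21, 9.82 and 9.28. In the other 3 control libraries Krt19 was at 4.95, 4.28 and 4.92. The library labelled wild-type organoid 2 correlated at 0.953 and 0.955 with those labelled hepatocyte 1 and 3, but at 0.816 and 0.800 with the others of its own label. Likewise that labelled hepatocyte 2 correlated at 0.936 and 0.951 with wild-type organoid 1 and 3, but at 0.822 and 0.826 with the others labelled hepatocyte. Markers of B and plasma cells summed to 1269 and 1635 under the labels wild-type organoid 1 and 3, and to at most 194.4 in the other control libraries. Whether the labels of these 2 libraries were exchanged, or instead those of the remaining control libraries, cannot be told from the files and was not tested. In either case values of both control groups would stand under other labels. In the second case the fit without this pair would compare groups with exchanged labels. The labels were kept throughout, and results against these groups are given with all libraries and again without this pair. In every control library 8 to 10 of 10 hepatocyte markers lay above the array median. Yap1 itself averaged 7.38 ± 0.08 (SD, n = 3) in the Yap-on, 7.15 ± 0.24 in the Yap-off, 6.72 ± 0.77 in the wild-type organoid and 6.40 ± 1.28 in the hepatocyte libraries.

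Most of the ER chaperone arm was lower in the Yap-on than in the Yap-off organoids. Of its 6 members 5 fell (Xbp1, Hspa5, Calr, Pdia4 and Pdia6), by 1.54-fold for Hspa5 to 2.19-fold for Xbp1, and none rose. In the integrated stress arm 0 of 4 members passed the test. In the limma fit on all 12 arrays 0 of them had an unadjusted p under 0.05, beside 27.2% of all genes that had. That fit takes its spread from the control groups too. It gave Atf4, Ddit3, Trib3 and Asns SEs of 0.54, 0.79, 0.81 and 1.79. On the 6 arrays compared these were 0.11, 0.13, 0.32 and 0.32. There the confidence intervals of Ddit3 and Trib3 just excluded 0 and those of Atf4 and Asns did not, though none of the 4 passed. The count of 0 thus does not show an unchanged arm. With all 12 arrays fitted, 4.36% of all genes were called lower and 7.09% higher in this comparison. Calls were made at an adjusted p under 0.05 over all 19937 genes. The median log2 difference was -0.90 over the chaperone arm and 0.17 over the stress arm, against -0.08 over all genes. The count of 5 was 3 without the library labelled Yap-off 3 or Yap-on 2, and 4 or 5 without each other library. Calls became fewer among all genes too. In either direction 11.5% were called with all libraries, 10.9% without Yap-off 1 and 5.87% to 7.27% without each other library of the 2 groups. The same 5 members had no overlap between the groups, where 28.9% of all genes lay lower in all Yap-on libraries than in any Yap-off library.

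**Figure D1:**
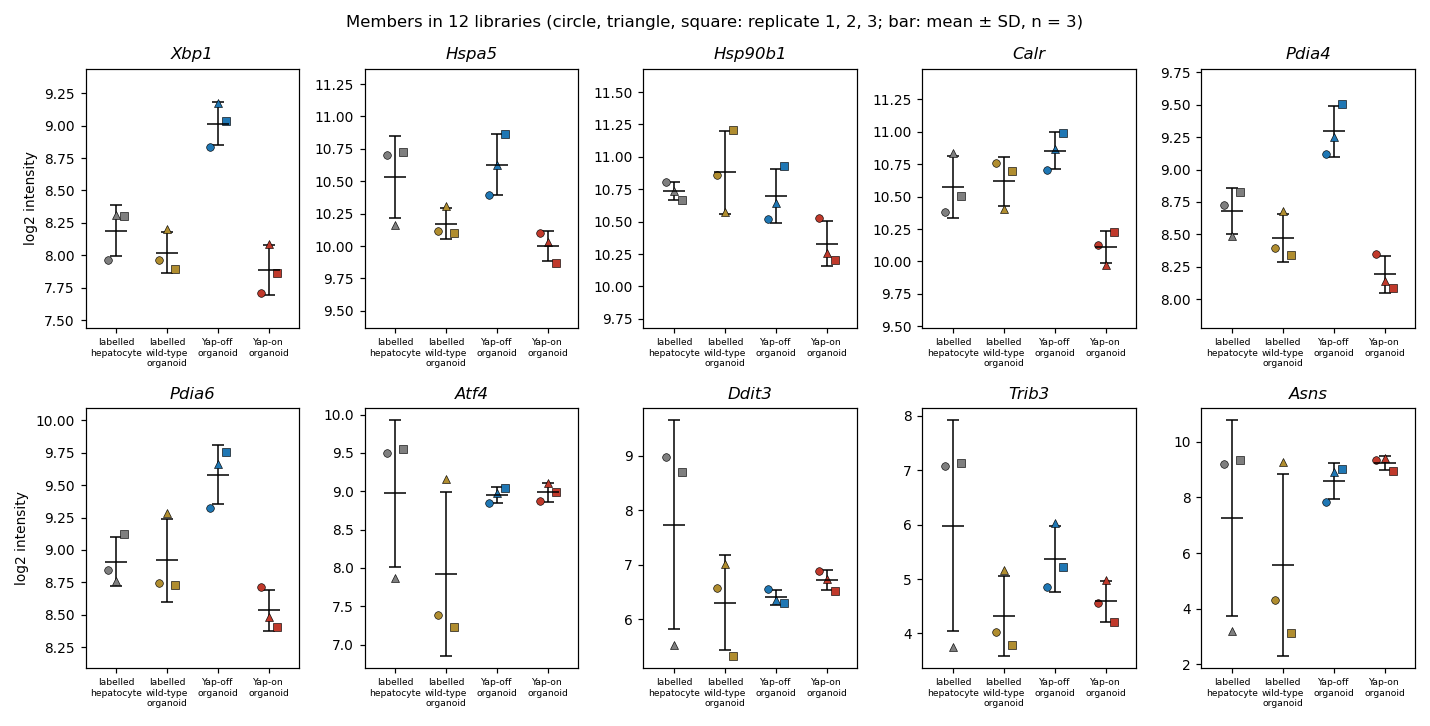
Log2 intensity (vertical axes, each panel with its own range) of the 10 members in the 4 labelled groups; symbols are libraries and bars the mean ± SD of 3. Xbp1, Pdia4 and Pdia6 are highest in the 3 Yap-off libraries, Calr is lowest in the 3 Yap-on libraries, and the 4 members of the integrated stress arm are spread most widely within the groups labelled hepatocyte and wild-type organoid.

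Xbp1, the transcription factor that enlarges the secretory apparatus, read 8.84, 9.17 and 9.04 in the 3 cultures with Yap off, and 7.71, 8.09 and 7.86 in the 3 with Yap on. Under the hepatocyte label its values were 7.96, 8.31 and 8.30, and under the wild-type organoid label 7.97, 8.20 and 7.90. All Yap-off libraries were thus above all 9 others, while the Yap-on values overlapped those of both control groups. Xbp1 fell by 1.13 on the log2 scale from Yap-off to Yap-on organoids (SE 0.15, 95% interval -1.48 to -0.78, adjusted p = 0.0013).

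Pdia4 and Pdia6, disulfide isomerases that form and rearrange the disulfide bonds of secreted proteins, were likewise highest in the Yap-off and lowest on average in the Yap-on libraries. Pdia4 measured 9.12, 9.25 and 9.51 with Yap off, against 8.35, 8.14 and 8.08 with Yap on, a difference of -1.10 (SE 0.15, adjusted p = 0.0013). Libraries labelled hepatocyte had 8.73, 8.48 and 8.83 and libraries labelled wild-type organoid 8.39, 8.68 and 8.34, so that the 3 Yap-off libraries were again the highest of the 12. Pdia6 read 9.32, 9.66 and 9.76 in the 3 cultures with Yap off, and 8.71, 8.48 and 8.41 in the 3 with Yap on, and it fell by 1.05 (SE 0.19, adjusted p = 0.0062). In the libraries labelled hepatocyte it lay at 8.85, 8.76 and 9.12, and in those labelled wild-type organoid at 8.74, 9.29 and 8.73. The value of the library labelled wild-type organoid 2 came close to the lowest Yap-off value, and every control library was above the 3 Yap-on libraries.

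Calr encodes calreticulin, which binds calcium and helps glycoproteins fold in the ER. It measured 10.70, 10.87 and 10.99 with Yap off, against 10.13, 9.98 and 10.22 with Yap on, and fell by 0.75 (SE 0.15, adjusted p = 0.013). The libraries labelled hepatocyte (10.38, 10.84 and 10.51) and wild-type organoid (10.76, 10.40 and 10.70) overlapped the Yap-off range, and the 3 Yap-on libraries were the lowest of the 12. Calr was no longer called when Yap-off 3 (-0.68, adjusted p = 0.055) or Yap-on 2 (-0.68, adjusted p = 0.059) was left out.

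Hspa5 and Hsp90b1, the ER members of the HSP70 and HSP90 families (BiP and GRP94), differed less. Hspa5 read 10.40, 10.62 and 10.87 in the 3 cultures with Yap off, and 10.10, 10.03 and 9.87 in the 3 with Yap on. Under the hepatocyte label its values were 10.70, 10.16 and 10.73, and under the wild-type organoid label 10.11, 10.31 and 10.10, so those labelled hepatocyte 1 and 3 were within the Yap-off range. Its fall by 0.63 (SE 0.18) just passed the threshold (adjusted p = 0.049) and was called in 7 of 17 alternative settings. The call ended without the libraries labelled Yap-off 2 (adjusted p = 0.12), Yap-off 3 (0.17), Yap-on 1 (0.11), Yap-on 2 (0.12) or Yap-on 3 (0.16), each left out alone. Hsp90b1 measured 10.52, 10.64 and 10.93 with Yap off, against 10.53, 10.26 and 10.20 with Yap on. These ranges overlapped, and the difference of -0.37 (95% interval -0.76 to 0.03) did not pass (adjusted p = 0.21). Under the hepatocyte label Hsp90b1 had 10.80, 10.74 and 10.66 and under the wild-type organoid label 10.86, 10.57 and 11.21, the last being the highest of all.

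None of the 4 members of the integrated stress arm passed between Yap-on and Yap-off organoids. Atf4, the transcription factor of the arm, read 8.84, 8.97 and 9.04 in the 3 cultures with Yap off, and 8.87, 9.11 and 8.98 in the 3 with Yap on, a difference of 0.04 (95% interval -1.17 to 1.24, adjusted p = 0.97). Its sign turned when quantile normalization was renewed (-0.07). Ddit3, which encodes CHOP, the factor linked to cell death in prolonged ER stress, measured 6.55, 6.35 and 6.30 with Yap off, against 6.89, 6.73 and 6.52 with Yap on. The lowest Yap-on value of Ddit3 was below the highest Yap-off value, and the difference was 0.31 (95% interval -1.45 to 2.07, adjusted p = 0.83).

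Trib3, a pseudokinase induced by ATF4 and CHOP, read 4.86, 6.03 and 5.22 in the 3 cultures with Yap off, and 4.56, 4.99 and 4.22 in the 3 with Yap on. Asns, the enzyme that makes asparagine, measured 7.83, 8.93 and 9.01 with Yap off, against 9.36, 9.43 and 8.95 with Yap on. Both genes overlapped between the groups. The differences were -0.78 for Trib3 (95% interval -2.60 to 1.04, adjusted p = 0.56) and 0.65 for Asns (95% interval -3.36 to 4.67, adjusted p = 0.85). The spread behind these intervals came from all 12 arrays, the control groups included. Fitted on the 6 arrays compared, the intervals ran from -0.22 to 0.29 for Atf4 and from 0.003 to 0.62 for Ddit3. They ran from -1.55 to -0.01 for Trib3 and from -0.11 to 1.42 for Asns. Those of Ddit3 and Trib3 thus just excluded 0, but none of the 4 members passed, with limma's adjusted p of 0.80, 0.11, 0.11 and 0.16. The fit on 6 arrays also called Xbp1, Hspa5, Calr, Pdia4 and Pdia6 and no other member, beside 12% of all genes called lower.

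**Figure D2:**
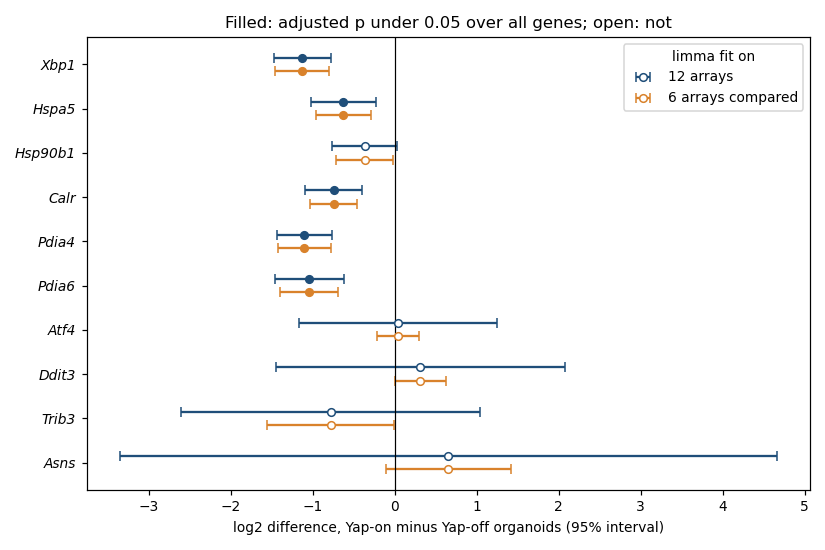
Log2 difference of each member between Yap-on and Yap-off organoids (horizontal axis) with its 95% interval from limma fits on all 12 arrays and on the 6 arrays compared; filled points passed an adjusted p under 0.05 over all genes. Xbp1, Hspa5, Calr, Pdia4 and Pdia6 are filled in both fits, and the 4 members of the integrated stress arm are open in both.

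Markers of cell identity moved with the fall of the chaperone arm. The summed intensity of 10 hepatocyte markers, all measured, ran from 26854 to 33319 in the Yap-off and from 2901 to 3169 in the Yap-on libraries, and 9 or 10 markers against 3 lay above the array median. Albumin (Alb), the main plasma protein of hepatocytes, averaged 12.41 ± 0.14 and 3.42 ± 0.22. The sum of 8 measured biliary and ductal markers was 671.6 to 1018 in the Yap-off and 8617 to 10253 in the Yap-on libraries. No endothelial marker of 10 and no marker of B and plasma cells of 7 lay above the array median in either group. Of 8 stellate and mesenchymal markers 3 did in each Yap-off library and 0 or 1 in the Yap-on libraries, and of 10 macrophage markers 5 and 3 did. The summed macrophage markers nevertheless ran from 689.8 to 832.3 in the Yap-off and from 944.3 to 1139 in the Yap-on libraries. Xist, the RNA of the inactive X chromosome of females, averaged 8.89 ± 0.36 in the Yap-off and 3.16 ± 0.03 in the Yap-on libraries. In the control groups Xist was high under the labels hepatocyte 1 (8.82) and hepatocyte 3, and at most 3.30 in the other 4 libraries. Eif2s3y, a gene of the Y chromosome, went the opposite way, at 2.85, 2.64 and 2.50 in the Yap-off and 7.42, 7.13 and 7.40 in the Yap-on libraries. Uty and Kdm5d, also of the Y chromosome, were likewise higher in every Yap-on than in every Yap-off library. In this comparison the state of Yap and the sex of the cells thus cannot be told apart. The part of these differences in the change of the chaperone arm was not tested.

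The wider pathway was followed in 7 lists, whose calls are to be read against the 4.36% of all genes called lower and 7.09% called higher. Of 17 genes of ER folding 5 fell and none rose (list median -0.65). Pdia5, another disulfide isomerase, fell most, from 7.08 ± 0.39 to 4.69 ± 0.27 (-2.39, SE 0.31, adjusted p = 0.00093). Dnajc3, a co-chaperone of BiP that also inhibits PERK, fell by 1.02 (adjusted p = 0.0054), and Hyou1, an ER chaperone of the HSP110 family, by 1.00 (adjusted p = 0.0094). Manf, a secreted ER stress protein, fell by 0.86 (adjusted p = 0.026), but its call ended when any of the libraries labelled Yap-off 2, Yap-off 3 or Yap-on 1 to 3 was left out (highest adjusted p = 0.099). Dnajb9, an ER co-chaperone and the fifth gene to fall, differed by -0.78 (adjusted p = 0.029) and was not called without any 1 of the 6 libraries. The count for this list was 3 in each of the 5 fits in which Manf was not called, and 4 without the library labelled Yap-off 1. Of the 17 genes 3 had a positive difference. The largest was that of Ero1a, named for this reason, from 7.77 ± 0.26 with Yap off to 9.77 ± 0.06 with Yap on. This rise of 2.00 (SE 0.79) was not called with all 12 arrays (adjusted p = 0.14), but was on the 6 arrays compared (limma, adjusted p = 0.00011).

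Of 14 genes of ER-associated degradation, which returns misfolded proteins to the cytosol, 2 fell and none rose (median -0.46). Syvn1, the ubiquitin ligase of that route, read 8.50, 8.73 and 8.56 in the 3 cultures with Yap off, and 7.73, 7.79 and 7.77 in the 3 with Yap on (-0.83, SE 0.17, adjusted p = 0.011). Derl1, a channel component, fell by 0.60 (adjusted p = 0.023). The Derl1 call ended, and the count for this list dropped to 1, when any 1 of the libraries labelled Yap-off 2 or 3 or Yap-on 1 to 3 was left out (highest adjusted p of Derl1 0.096). Of 22 measured genes of the translocon and of transport to the Golgi 1 fell with all 12 arrays fitted (median -0.24). In that fit the share was close to that of all genes. The gene was Lman1, a cargo receptor for coagulation factors (-0.73, adjusted p = 0.039), and its call ended without any 1 of the 6 libraries compared (highest adjusted p = 0.13). Of the 22 genes 11 lay without overlap lower and 1 higher with Yap on, beside 28.9% and 24.6% of all genes. Of the 14 genes of degradation 8 lay lower and 2 higher in this way.

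Among 8 measured ER stress sensors and their relatives 1 fell and 1 rose (median 0.12). Atf6b, a relative of ATF6, fell by 1.11 (adjusted p = 0.021), and Creb3l1, an ER-bound factor of secretory cells, rose by 1.42 (adjusted p = 0.033). The Creb3l1 call ended without any 1 of the 6 libraries (highest adjusted p = 0.12). That of Atf6b ended without any 1 of them but Yap-off 3 (highest adjusted p = 0.083). The count for this list was 1 without Yap-off 1, Yap-off 3 or Yap-on 3 and 0 without Yap-off 2, Yap-on 1 or Yap-on 2. Without Yap-off 1 or Yap-on 3 the gene called was Eif2ak3, which is both in this list and in the eIF2 list that follows. Of 6 measured eIF2 kinases and phosphatase subunits Eif2ak2, the kinase PKR that senses double-stranded RNA, rose by 1.34 (adjusted p = 0.023), and the list median was 0.62. Its call ended without any 1 of the 6 libraries but Yap-off 1 (highest adjusted p = 0.093). The count was 2 without Yap-off 1, where Eif2ak3, the gene of PERK, passed too (0.91, adjusted p = 0.046), 1 without Yap-on 3, where Eif2ak3 alone passed (0.95, adjusted p = 0.041), and 0 without each other library. With all libraries Eif2ak3 differed by 0.75 (adjusted p = 0.065), and it is named because of these fits.

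The ATF4 response list went both ways, with 3 of 28 measured genes higher and 3 lower (median 0.28). Cth, the cystathionine lyase that makes cysteine and is abundant in liver, fell by 4.01 (SE 0.67, adjusted p = 0.0041), and Atf5, a transcription factor abundant in liver, fell by 2.16 (adjusted p = 0.0058). Slc7a5, the transporter of large neutral amino acids, rose by 2.28 (adjusted p = 0.036) and the stress protein Nupr1 by 1.96 (adjusted p = 0.024). The calls of Cth and Atf5 held in all 17 alternative settings, whereas that of Slc7a5 ended without any 1 of the 6 libraries (highest adjusted p = 0.13). The call of Nupr1 ended without any 1 of them but Yap-off 2 (highest adjusted p = 0.10). The other 2 calls of the list, beyond the 4 largest, were Wars, a tRNA synthetase (1.47, adjusted p = 0.014), and Cebpb, a transcription factor (-1.14, adjusted p = 0.0092). The count for this list was 5 without Yap-off 1 or Yap-off 2, 4 without Yap-on 1 or 2, and 3, all lower, without Yap-off 3 or Yap-on 3. None of 8 measured chaperones of the cytosol and mitochondria passed (median 0.42), with Hspa1a, an inducible HSP70, at 1.36 (adjusted p = 0.082) and Hsph1 at 0.84 (adjusted p = 0.28). On the 6 arrays compared 12 genes of ER folding fell and 1 rose, 11 of the ATF4 response rose and 6 fell, and 4 of the cytosolic and mitochondrial chaperones rose and 1 fell, beside 12% of all genes called lower and 19.1% higher.

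**Figure D3:**
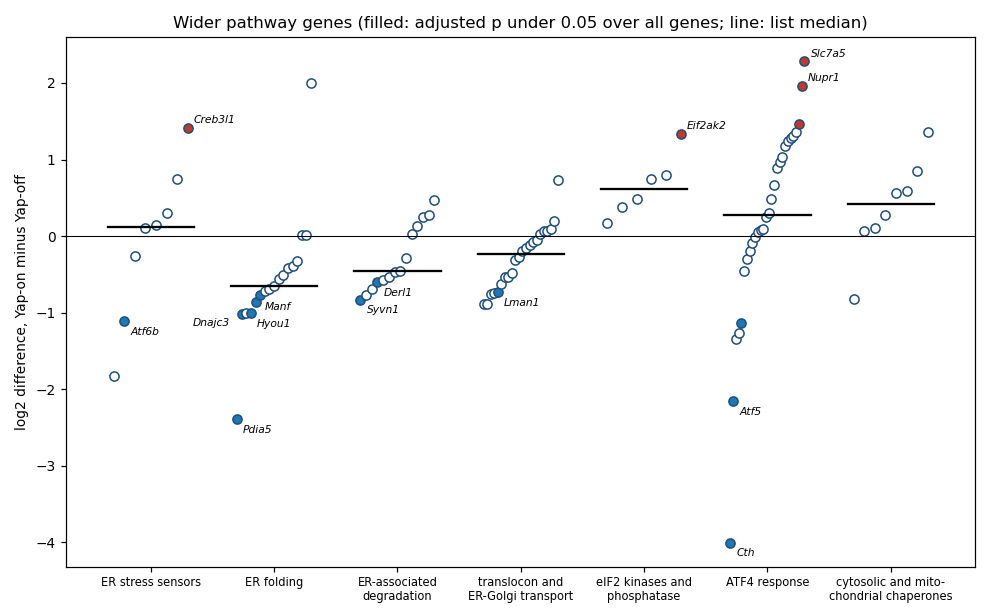
Log2 difference between Yap-on and Yap-off organoids (vertical axis) of each measured gene in the 7 pathway lists; filled points passed an adjusted p under 0.05 over all genes, lines are list medians, and up to 4 called genes per list are named. The ER folding median lies at -0.65 and that of the ATF4 response, whose called genes go both ways, at 0.28.

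The promoters of the members were searched for the elements through which this pathway is known to act. The ER stress response element (ERSE) is bound by ATF6 with the general factor NF-Y and was spelled as CCAAT and CCACG with any 9 bases between them, searched on both strands. It was found in the RefSeq windows (GRCm38.p6, 250 bases before to 50 after the start of transcription) of 4 of the 10 members, Hspa5, Hsp90b1, Calr and Pdia6. In all, 0.119% of 32851 such windows held it. The stretches that carry it are shown 5′ to 3′ on the gene's strand, with the fixed bases of the element in capitals. Hspa5 lies at chr2:34772013-34772055 on the plus strand, Hsp90b1 at chr10:86705521-86705668 on the minus strand, Calr at chr8:84847063-84847105 on the minus strand and Pdia6 at chr12:17266479-17266521 on the plus strand.
Hspa5: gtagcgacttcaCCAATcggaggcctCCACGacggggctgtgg
Hsp90b1: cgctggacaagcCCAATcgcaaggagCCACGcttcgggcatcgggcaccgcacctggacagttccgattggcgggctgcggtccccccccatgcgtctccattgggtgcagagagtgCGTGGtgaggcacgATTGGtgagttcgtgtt
Calr: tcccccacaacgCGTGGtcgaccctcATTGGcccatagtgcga
Pdia6: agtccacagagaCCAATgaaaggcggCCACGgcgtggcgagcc
Hsp90b1 held 2 copies, 1 on each strand, and Calr held its copy on the opposite strand, where the same letters read as their reverse complement. The element began 65 bases before the start in Hspa5 and 98 bases before it in Pdia6.

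Having the element did not go with 1 size of change among the members. Hsp90b1, with 2 copies, did not pass between Yap-on and Yap-off organoids, while Xbp1 and Pdia4, whose windows lack these letters, had the largest falls of the arm. Of 37 genes with the element in a window 21 were measured, and 17 of these were no members. Among those 17, 3 fell and none rose (Acnat2, Dnajc3 and Syvn1, of which Acnat2 is named only because it completes this count), and 13 had a negative difference, with a median of -0.28. Over all genes 4.36% were called lower and 7.09% higher, and 57.6% had a negative difference. The variant element (ATTGG and CCACG with any 1 base between them) and the XBP1 motif TGACGTGG, searched likewise, were found in 0 member windows and in 0.0365% and 0.676% of all windows.

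The composite element of ATF4 and C/EBP factors was spelled TGATGNAA, on either strand. It was found in the windows of 2 members, Asns and Trib3, both of the integrated stress arm, and in 3.97% of all windows. That of Trib3 lies downstream of the start and is not shown. The stretch of Asns lies at chr6:7693213-7693244 on the minus strand (GRCm38.p6).
Asns: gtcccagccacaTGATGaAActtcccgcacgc
A match of letters describes a window and does not show that a factor binds there.

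Against the control groups the Yap-off organoids were higher in 1 or 2 members of the chaperone arm. Compared with the libraries labelled wild-type organoid, Xbp1 was higher by 1.00 (SE 0.15, adjusted p = 0.016) and Pdia4 by 0.82 (SE 0.15, adjusted p = 0.027), and no other member passed, beside 1.42% of all genes called higher. Compared with those labelled hepatocyte, Xbp1 alone passed, higher by 0.83 (SE 0.15, adjusted p = 0.032), beside 0.878% of all genes. Without the library labelled wild-type organoid 2 and that labelled hepatocyte 2, 4 chaperone members (Xbp1, Hspa5, Pdia4 and Pdia6) were higher than in wild-type organoids and 3 (Xbp1, Pdia4 and Pdia6) higher than in hepatocytes. In that fit 18.2% and 5.23% of all genes were called higher. These comparisons share the Yap-off libraries with that of Yap-on against Yap-off organoids.

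Calls against the control groups changed with single libraries. Against wild-type organoids both calls ended when the library labelled wild-type organoid 3, Yap-off 2 or Yap-off 3 was left out, with adjusted p of 0.056, 0.066 and 0.063 for Xbp1 and 0.088, 0.085 and 0.10 for Pdia4. Without the library labelled wild-type organoid 1 that of Pdia4 ended alone (0.080), and without wild-type organoid 2 the calls were Xbp1, Pdia4, Pdia6 and Atf4 of the stress arm, all higher, beside 19.4% of all genes called in either direction. Against hepatocytes the call of Xbp1 ended without hepatocyte 1 (0.11), hepatocyte 3 (0.073), Yap-off 2 (0.12) or Yap-off 3 (0.12), and without hepatocyte 2 Xbp1 stayed higher (0.89) and Ddit3 of the stress arm was called lower (-2.44), beside 4.2% of all genes.

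The Yap-on organoids had lower means than both control groups in all 6 chaperone members, but no member passed against either. Of all genes 5.47% and 6.19% were called against wild-type organoids and hepatocytes. An unadjusted p under 0.05 was seen for 2 and 4 of the 10 members, and for 22.1% and 19.6% of all genes. The Yap-on libraries were without overlap below those labelled hepatocyte in 5 chaperone members (Hspa5, Hsp90b1, Calr, Pdia4 and Pdia6), where 21.1% of all genes were, and below those labelled wild-type organoid in 3 (Hsp90b1, Calr and Pdia6), where 11.7% were. Without the pair Hsp90b1 (-0.70) and Calr (-0.62) were called lower than in wild-type organoids, and Hspa5 (-0.71) and Pdia4 (-0.59) lower than in hepatocytes, beside 16.4% and 9.17% of all genes. Without the library labelled wild-type organoid 2 alone, Hsp90b1 and Calr were called lower and Atf4 and Asns of the stress arm higher than in wild-type organoids, beside 30.2% of all genes called in either direction. Without hepatocyte 2 alone, Hspa5 and, of the stress arm, Ddit3 and Trib3 were called lower than in hepatocytes, beside 9.71% of all genes called in either direction.

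The integrated stress arm varied most between the control libraries, and along the same split as the macrophage and ductal markers. Under the labels hepatocyte 1, hepatocyte 3 and wild-type organoid 2, Asns was high, with values of 9.22, 9.36 and 9.27. Under the labels hepatocyte 2, wild-type organoid 1 and wild-type organoid 3 it was low, with 3.20, 4.32 and 3.12, all below the median of their array. Atf4 took the same split, at 9.50, 9.55 and 9.16 against 7.87, 7.38 and 7.23. The 6 Yap-off and Yap-on libraries, between 7.83 and 9.43 for Asns and between 8.84 and 9.11 for Atf4, lay near the first set for both genes.

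Ddit3 and Trib3 followed the split less closely. The libraries labelled hepatocyte 1 (8.97) and hepatocyte 3 (8.71) were highest for Ddit3, above the 10 other libraries, which reached 7.02 at most (wild-type organoid 2), and the lowest value, 5.33, carried the label wild-type organoid 3. The same libraries were highest for Trib3 (7.08 and 7.13), which reached 5.16 under the label wild-type organoid 2 and lay between 3.75 and 4.03 in the other 3 control libraries. The Yap-off library 2, at 6.03, was the highest of the remaining libraries for Trib3. Macrophage markers summed to 436.4, 588.8 and 573.0 in the libraries labelled hepatocyte 1, wild-type organoid 2 and hepatocyte 3, and to 13272, 21727 and 25423 in those labelled wild-type organoid 1, wild-type organoid 3 and hepatocyte 2. Ductal markers summed to 2461, 2390 and 2097 against 123.2, 148.2 and 132.6. Their part in the pattern of the stress arm was not tested.

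No member passed between the libraries labelled wild-type organoid and hepatocyte, where 0.0502% of all genes did. An unadjusted p under 0.05 was seen for 0 members and for 8.84% of all genes. Without the library labelled hepatocyte 2 alone Ddit3 (-2.53) and Trib3 (-2.78) were called lower in the wild-type organoids, beside 4.36% of all genes called, and without wild-type organoid 2 alone Atf4 was (-1.66, adjusted p = 0.048), beside 8.05%. Without both, limma called Asns (-5.57), Trib3 (-3.20), Ddit3 (-2.89), Atf4 (-2.22) and Hspa5 (-0.61) lower in the wild-type organoid libraries 1 and 3 than in the hepatocyte libraries 1 and 3, beside 18.3% of all genes. In the same fit Ddit3 (-2.44), Trib3 (-1.73) and Atf4 (-0.57) were lower in Yap-off organoids than in the hepatocyte libraries, beside 8.78% of all genes. Trib3 (-2.51), Ddit3 (-2.13) and Atf4 (-0.54) were lower there in Yap-on organoids, beside 9.17% of all genes. Against the wild-type organoid libraries Asns (4.87), Atf4 (1.64) and Trib3 (1.47) were higher with Yap off, beside 18.2% of all genes. With Yap on, Asns (5.53) and Atf4 (1.68) were higher, beside 24.6% of all genes. These values compare libraries whose profiles conflict with their labels.

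**Figure D4:**
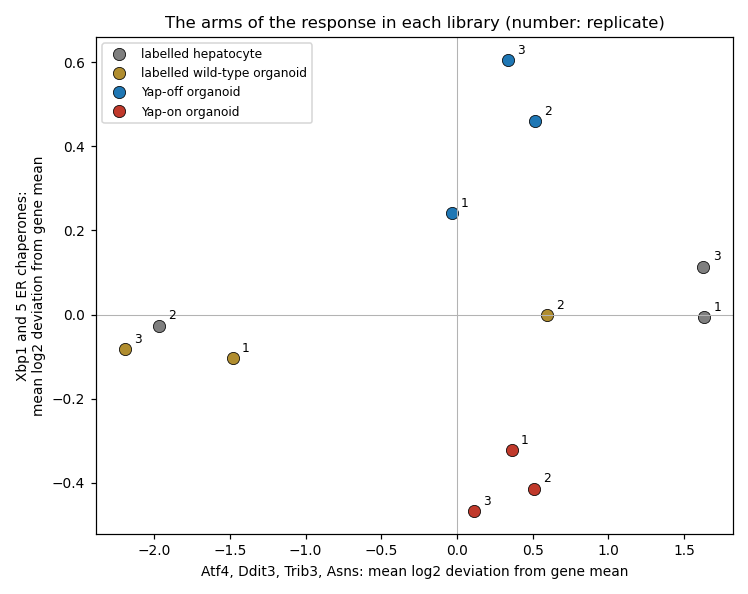
Mean log2 deviation from each gene's mean over the 12 libraries, for the integrated stress arm (horizontal axis) and the ER chaperone arm (vertical axis); points are libraries, numbered by replicate. Yap-off and Yap-on organoids part along the vertical axis, from 0.24 to 0.61 and from -0.47 to -0.32, and the control libraries along the horizontal axis, from -2.19 to 1.63.

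Members varied together more within an arm than across arms. Over the 12 arrays, which share the group structure described above, Pearson's r between members of the chaperone arm had a median of 0.67 over 15 pairs and ran from 0.10 (Xbp1 and Hsp90b1) to 0.96 (Pdia4 and Pdia6). Within the stress arm it ran from 0.61 to 0.94 over 6 pairs, highest for Atf4 and Asns. Across arms the median was 0.21 over 24 pairs, with -0.59 for Hsp90b1 and Asns and 0.77 for Hspa5 and Trib3. Hsp90b1 and Calr correlated negatively with Atf4 (-0.55 and -0.40), whereas the other chaperone members correlated positively with it.

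The genes most like the mean profile of the chaperone arm were Abca6 (r = 0.97), Gckr (0.96), Vnn3 (0.96), Ftcd (0.96) and Sardh (0.96). Gckr, Ftcd and Sardh encode the regulator of glucokinase and enzymes of histidine and sarcosine breakdown in liver. Their log2 differences between Yap-on and Yap-off organoids were -3.51, -3.41 and -3.52, beyond those of all members. The genes most like the stress arm were R3hcc1 (r = 0.99), Pawr (0.98), Fgfbp1 (0.98), Epb41l5 (0.98) and Enc1 (0.98), and they differed between Yap-on and Yap-off organoids by -0.50 (Fgfbp1) to 0.23 (Epb41l5). These likenesses describe 12 arrays and were taken as the highest of all other genes.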

How the data were processed

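Total RNA was amplified and labelled with the Nugen Pico WT kit and hybridised to the arrays, per the labels' protocols. The authors deposited intensities made with RMA, per the submitters' processing notes, which give no version (RMA subtracts background, normalizes arrays to common quantiles and summarises probes). They lie on a linear scale, so log2 was taken here. No genome build is given in the sources used here. Of 34760 array rows 21640 name exactly 1 gene, and 1321 naming several and 11799 not in the probe table were left out. The row with the highest mean stood for a gene, and no filter on low values was applied.

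For 6 comparisons, limma 3.58.1 in R 4.3.3 fitted group means to all 12 arrays, with 8 residual degrees of freedom and 1.76 from the prior. All adjusted p-values are limma's with Benjamini-Hochberg adjustment over 19937 genes, and SEs and 95% intervals use the spread of all groups unless the 6 arrays are named. No exact permutation test was run, since 3 arrays against 3 allow no two-sided p under 0.1. The fit was tested on simulated data. The number of arrays limits the precision, and detection calls were not used here.

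Members, lists and tests were chosen with earlier results of these data known. Named were all members, up to 4 called genes with the largest difference per list (2 where none was called), and the 5 genes most like each arm. Marker lists were summed on the linear scale. Alternatives were renewed quantile normalization, median centring, the mean or the most variable row of a gene, a filter that drops the 30% of genes lowest in mean, fits on the 6 arrays compared, eBayes made robust with an intensity trend, weights for arrays, a block for the replicate number, log2 of the value plus 1, leaving out the library labelled wild-type organoid 2 and that labelled hepatocyte 2, and leaving out each library of the groups compared. Figures were drawn with matplotlib 3.10.9.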

Additional observations from a re-analysis of the deposited data

Results flagged for a closer look

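A second array row of Pdia4, which the comparisons did not use because its mean was lower, also separated the groups. Its lowest Yap-off library stood at 5.47 (log2 intensity), above the highest control library at 4.66. It averaged 6.31 ± 1.07 (SD, n = 3) in the Yap-off, 4.17 ± 0.15 in the Yap-on, 4.29 ± 0.25 in the hepatocyte and 4.39 ± 0.31 in the wild-type organoid libraries. Taken in place of the first row, it gave a Pdia4 difference of -2.14 between Yap-on and Yap-off organoids (limma, adjusted p = 0.011), against -1.10 with the first row.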

How the results depend on the processing

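Between Yap-on and Yap-off organoids Xbp1, Pdia4 and Pdia6 were called lower in all 17 alternatives, Calr in 15, Hspa5 in 7 and Hsp90b1 in 1 (array weights, adjusted p = 0.039), and the count of called members ran from 3 to 5 with each library left out. Leaving out each library gave 0 to 4 called members for Yap-off against wild-type organoids, 0 to 4 for Yap-on against wild-type organoids, 0 to 2 for wild-type organoids against hepatocytes, 0 to 2 for Yap-off organoids against hepatocytes and 0 to 3 for Yap-on organoids against hepatocytes. Of all genes these fits called, in that order, 0.507% to 19.4%, 2.88% to 30.2%, 0% to 8.05%, 0.567% to 4.2% and 3.67% to 9.71%. Array weights called 6, 4, 5, 4 and 7 members in those 5 comparisons in the same order, and leaving out the library labelled wild-type organoid 2 and that labelled hepatocyte 2 called 7, 4, 5, 6 and 5. Of all genes, array weights called 26.1%, 41.6%, 27.2%, 12.2% and 31.8% there, and leaving out the pair 32.3%, 41%, 30.7%, 14% and 21.6%, so that for Yap-on against wild-type organoids the members were called about as often as all genes. On the 6 arrays compared, 0 members were called for Yap-off organoids against either control group, beside 0.306% and 0.717% of all genes. The trend with robust eBayes called 1 for Yap-off against wild-type organoids and 0 against hepatocytes, beside 1.63% and 1.17% of all genes. The most variable row called 1 for Yap-off against wild-type organoids, beside 2.5%. Against hepatocytes, median centring called 0 and the mean of rows 2 for Yap-off, beside 1.84% and 1.85%. Renewed quantiles called 1 there for Yap-on organoids, beside 5.79%. No pairing by replicate number was seen: deviations of same-numbered Yap-on and Yap-off libraries correlated at 0.07, 0.03 and -0.06. Those of differently numbered libraries correlated at -0.11 to 0.10. With 3 libraries per group these values cannot settle whether samples were paired. With the replicate number as a block, Hspa5 (adjusted p = 0.096) and, for Yap-off against wild-type organoids, Pdia4 (0.076) were no longer called, which left 1 member there, and the translocon and eIF2 lists had 0 calls. The block fit called 8.62% of all genes between Yap-on and Yap-off organoids and 0.853% between Yap-off and wild-type organoids. For the lists between Yap-on and Yap-off organoids, in the order sensors, folding, degradation, translocon, eIF2, ATF4 and cytosolic chaperones, the calls were 4, 13, 5, 8, 3, 17 and 5 on the 6 arrays, 4, 14, 6, 10, 4, 14 and 5 with array weights and 4, 12, 6, 10, 3, 16 and 4 without the 2 libraries. The shares of all genes called were 31.2%, 38.6% and 29.7% in those fits. Renewed quantiles gave 1 sensor, 8 folding, 3 translocon and 0 eIF2 genes, median centring 0 translocon and 3 eIF2 genes, and the trend 3 folding, 1 degradation and 0 translocon genes. Of all genes 9.74%, 11.4% and 10.4% were called in these 3 settings. With each library left out the lists ran, in the same order, from 0 to 1, 3 to 4, 1 to 2, 0 to 0, 0 to 2, 3 to 5 and 0 to 0. Those fits called 5.87% to 10.9% of all genes. The sign of Atf4 turned where its difference was near 0. For Yap-on against Yap-off organoids it was -0.074 with renewed quantiles, -0.017 without Yap-off 1 and -0.025 without Yap-on 2, and it ran from -0.025 to 0.097 with each library left out. For Yap-off organoids against hepatocytes it was 0.24, 0.27 and 0.03 without hepatocyte 1, hepatocyte 3 and Yap-off 1 (range with each left out -0.57 to 0.27). For Yap-on organoids against hepatocytes it was -0.0875 with renewed quantiles, -0.44 with array weights, -0.54 without the 2 libraries or without hepatocyte 2 alone and -0.05 without Yap-on 2 (range with each left out -0.54 to 0.31). Median centring moved the median of all genes between wild-type organoids and hepatocytes from -0.03 to -0.13. Renewed quantiles moved the split of calls between Yap-off and wild-type organoids from 237 lower of 520 to 201 lower of 600, with more genes higher than lower in both. The cause of these changes was not tested.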
